A study of Mus musculus with 3 samples.

Results

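The let‐7 seed sites under Ago2 peaks of 3′UTRs in N2A cells are described here. A covered stretch was a run of at least 8 nt of a 3′UTR that lay under peaks of at least 2 of the 3 libraries on the strand of the gene. Of 30379 such stretches, 230 were chosen by a match to positions 2 to 8 of mouse let‐7a‐5p, and they held 232 matches in the 3′UTRs of 217 genes. The other 44 let‐7 matches of the same 3′UTRs, found in 32 of these genes, were the comparison. Of these 44, 26 were under a peak of 1 library and 18 under no peak. Peak coverage in at least 2 libraries chose the sites, so their coverage is given as a description. The tests concern features that the choice did not use, coverage in a library left out of the choice, and coverage around all let‐7 matches, chosen or not.

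N2A is a mouse neuroblastoma line. All samples were taken under basal conditions, with no treated or control group, crosslinked on the plate by ultraviolet irradiation (400 mJ per square cm, followed by 200) and precipitated with an antibody against Argonaute 2 (Ago2), the protein that carries microRNAs (miRNAs). The 3 libraries form 1 group of replicates numbered 1 to 3. Nothing in the labels says that they came from separate cultures, so the spread between them may be technical, and 1 line in 1 state limits what they can represent.

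let‐7 is a conserved family of miRNAs whose members share a seed, the bases near the 5′ end that pair with the target. The family rises as cells differentiate and is known for repressing genes of growth, of the cell cycle and of the embryonic programme. LIN28 proteins block its maturation, and their own transcripts are let‐7 targets. Sites followed by an adenosine, which faces position 1 of the miRNA, are called 8mer sites and are as a rule the more effective kind.

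Shown first are the miRNAs that the chosen sites can pair with, since all of them read the same 7 bases. The RefSeq table (GRCm38.p6) lists 11 mature miRNAs with this seed, namely 9 let‐7 members, miR‐98‐5p and mmu-miR-1961, at 13 loci. Given below are let‐7a‐5p, which defined the search, and the 4 miRNAs whose mature arm lay under the central part of a peak in each library, with the seed (positions 2 to 8) in capitals.
mmu-let-7a-5p: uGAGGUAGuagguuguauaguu
mmu-let-7d-5p: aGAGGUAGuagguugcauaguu
mmu-let-7g-5p: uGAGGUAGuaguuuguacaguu
mmu-let-7i-5p: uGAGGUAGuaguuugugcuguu
mmu-miR-98-5p: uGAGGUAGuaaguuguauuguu
Counted from the 5′ end of let‐7a, let‐7d carries U1A and U16C, let‐7g carries G12U and U18C, and miR‐98 carries G11A and A19U. These differences fall outside the seed, so a seed match alone cannot tell which member was bound.

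The let‐7 miRNAs left peaks of their own. The central part of a peak, what remains after 30 nt are trimmed from each side, overlapped the mature arm by at least 15 nt in all 3 libraries at the loci of let‐7d, let‐7g, let‐7i and miR‐98. The arm of let‐7k met this rule in replicate 1 only, and the other 8 loci, among them those of let‐7a, let‐7b, let‐7c, let‐7e and let‐7f, met it in no library. let‐7c and let‐7f have 2 loci each in the table, and how reads that fit more than 1 locus were treated is not given in the sources used here. For these a locus without a peak therefore does not show that its miRNA was unbound. let‐7a, let‐7b, let‐7e and mmu-miR-1961 are listed at 1 locus each, as are the miRNAs with a peak in every library. Whether they were unbound was not tested.

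The DNA form of the match is CTACCTC, and CTACCTCA with the 8mer adenosine. Given next are the 9 8mer matches that lay wholly inside the central part of a peak in each of the 3 libraries. They are shown as 22 nt of the GRCm38.p6 transcript strand with the match in capitals, in order of the summed width of their narrowest peaks.
Sesn3: tatcttgctgtcctCTACCTCa
Smug1: tctctaatgctgatCTACCTCa
Zfp275: atgcattcgtgtatCTACCTCa
Gxylt1: ttcagacttcccttCTACCTCa
Dkk3: ctgtgtttcagctcCTACCTCa
Tet3: actacatgtataacCTACCTCa
Cbx5: gtgataatactgacCTACCTCa
Ago2: tttacaatgtggatCTACCTCa
Utrn: ccatgatcacctttCTACCTCa
All 9 end in the adenosine, as the rule for showing them required, and the bases before the match differ from gene to gene.

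The libraries were unequal, which touches every count below. They held 711377, 498071 and 829936 peaks, and peaks of replicates 1, 2 and 3 covered 2.06, 5.46 and 5.40 Mb of annotated 3′UTR. No counts accompany the peaks, so the number of reads behind a site is unknown, and confidence intervals given here cover counting error only. Of 10 neural and neuroblastoma marker genes, 5 had a peak in the 3′UTR in each library, among them Map1b, Stmn2, Ncam1 and Mycn, against 5026 of all 21671 genes. Of the markers of other cells the same held for 0 of 7 microglial, 0 of 5 hepatocyte, 0 of 6 erythroid, 1 of 6 astrocyte (Slc1a2) and 2 of 5 oligodendrocyte genes, Mbp among them.

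In the 3′UTRs that held any covered stretch there were 1081 let‐7 matches in 914 genes. Of these, 232 lay in a covered stretch, or 21.5% (95% Wilson interval 19.1 to 24.0%), against 19.9% of all 7‐nt windows of the same 3′UTRs. Windows with as many A or T bases as the let‐7 match, 3 of the 7, were in a stretch less often, at 15.9%. The share of let‐7 matches was therefore near that of all windows and 1.35 times that of windows of like composition. On the opposite strand 4 matches (0.37%) lay in such a stretch, against 0.61% of windows. In stretches of all 3 libraries lay 39 matches (3.61%, interval 2.65 to 4.89%), against 3.27% of windows.

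The adenosine after the match separated the sites. Of 343 8mer matches 104 were in a covered stretch, or 30.3% (25.7 to 35.4%), while of 738 matches without the adenosine 128 were, or 17.3% (14.8 to 20.2%). In each library peaks covered more of the 8mer matches. Replicate 1 covered 15.5% of the 8mer matches and 9.21% of the others. Replicate 2 covered 46.4% and 32.4%, and replicate 3 covered 37.6% and 26.4%. For windows of the same A or T number the coverage was 9.29, 27.9 and 26.7% in replicates 1, 2 and 3, so matches without the adenosine stood above these windows in replicate 2 and slightly below them in replicates 1 and 3.

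When the peaks were trimmed by 30 nt on each side, the lead of let‐7 matches over windows grew. Of 965 matches in 3′UTRs with a trimmed stretch, 135 were held by one, or 13.99% (11.9 to 16.3%), against 7.22% of all windows and 5.83% of windows of the same A or T number. The ratio to all windows was 1.94, compared with 1.08 for peaks as deposited. The shares were 20.7% for 8mer matches and 10.8% for the others. With trimmed peaks, matches without the adenosine were also covered more often than windows of like composition in each library, at 7.18 against 4.997% in replicate 1, 23.0 against 14.1% in replicate 2 and 14.8 against 13.1% in replicate 3.

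**Figure D1:**
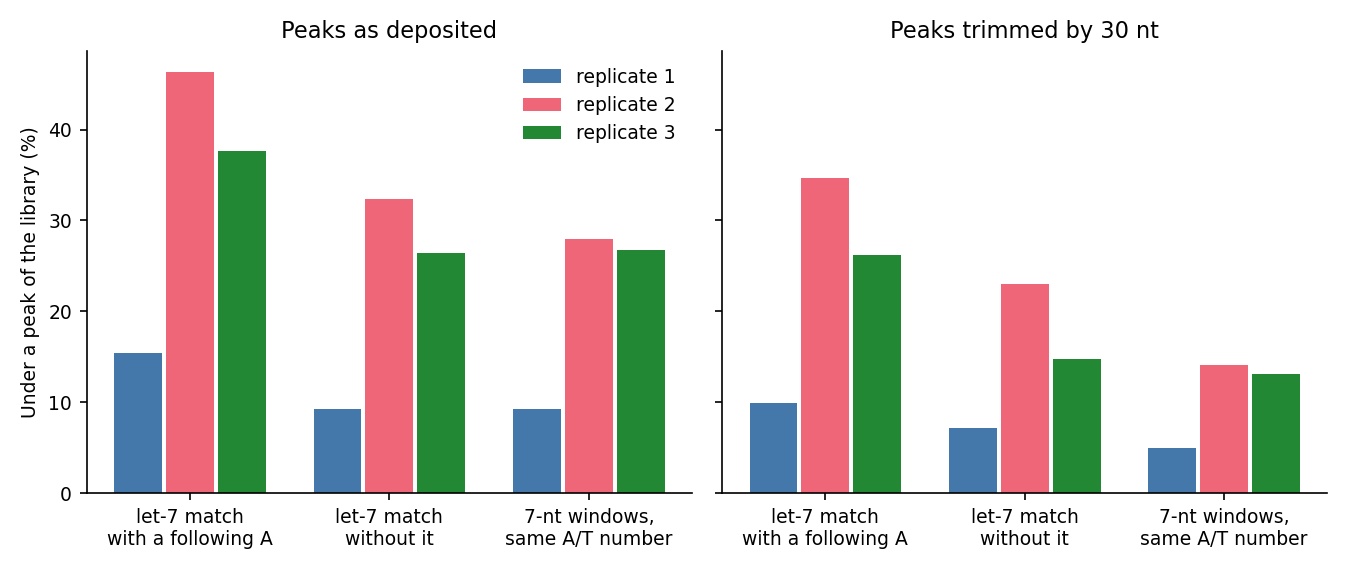
Share of let‐7 matches and of 7‐nt windows with the same number of A or T bases that lay under a peak (vertical axis, percent), by library (bars), for peaks as deposited and for peaks trimmed by 30 nt on each side. In each library the bar for matches with a following A is the tallest, 15.5, 46.4 and 37.6% as deposited, and trimming lowers the bars for windows by a larger share than those for let‐7 matches.

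Coverage was also followed along the transcript, as a mean over matches at each distance. Positions outside the 3′UTR were left out, so the matches that count differ between distances. In 3′UTRs with a peak in the library, 8mer matches were under a peak in 17.03, 41.1 and 34.4% of cases in replicates 1, 2 and 3. At 150 to 250 nt from these matches, where still inside the 3′UTR, the mean coverage was 11.6, 30.5 and 26.4%. The difference of 8.04 ± 2.63 points (mean ± SD, n = 3) was positive in each library (exact sign‐flip permutation test over libraries, two‐sided, p = 0.25, the smallest that 3 libraries allow). Without the adenosine the difference was 0.317, 5.39 and 0.949 points, or 2.22 ± 2.76 (n = 3). The gain over the surroundings was larger for 8mer matches in every library, by 5.82 ± 1.15 points (exact permutation p = 0.25, n = 3). Over all let‐7 matches the difference was 1.96, 7.12 and 3.24 points, or 4.11 ± 2.69 (exact permutation p = 0.25, n = 3). By the same measure the mean over all matches of a family was 1.00 ± 0.991 for miR‐15/16 and 6.22 ± 3.06 for miR‐17, so the value of let‐7 lay between them.

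**Figure D2:**
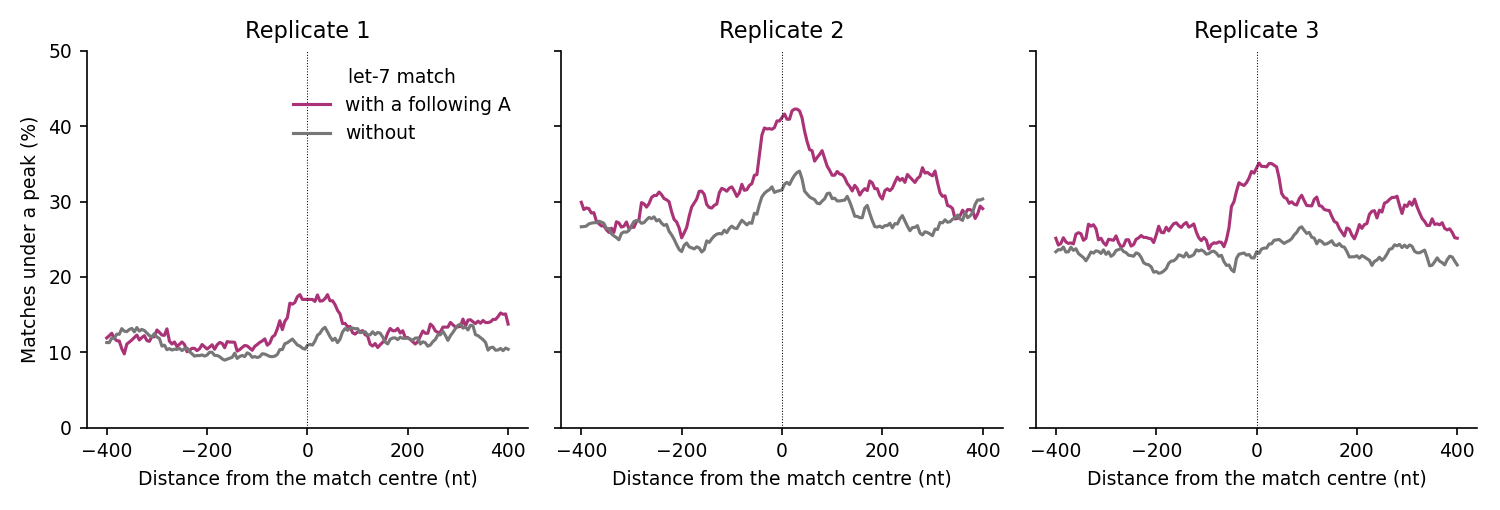
Percent of let‐7 matches under a peak (vertical axis) by distance from the centre of the match in nt (horizontal axis), for 1 library a panel and separately for matches with and without a following A. The curve for matches with the adenosine peaks close to the match in each library, by 5.39, 10.6 and 8.09 points over 150 to 250 nt away in replicates 1, 2 and 3.

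Within the 3′UTRs that held a covered match, covered matches were compared with the others. Among the 232 chosen matches 44.8% were 8mers (38.6 to 51.3%), against 11 of the 44 comparison matches (25%, 14.6 to 39.4%). For single libraries the share was 42.7% of 143 covered and 17.9% of 28 other matches in replicate 1, 38.9% of 450 and 31.6% of 57 in replicate 2, and 40.5% of 365 and 21.4% of 56 in replicate 3. The difference was 17.1 ± 8.92 points (n = 3) and had the same sign in each library (exact sign‐flip permutation p = 0.25). A 3′UTR with a single match can enter only as covered, which is why the comparison groups are small. With all let‐7 matches of 3′UTRs with a stretch as the comparison, a choice made after the data were seen, the difference was 12.7 ± 1.06 points.

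Among the chosen sites the 8mer share was similar for each combination of libraries. It was 42.9% of the 28 matches under peaks of replicates 1 and 2 only, 52.4% of the 21 under replicates 1 and 3, 44.1% of the 143 under replicates 2 and 3, and 43.6% of the 39 under all 3. The intervals of these shares overlap. In all 3′UTRs with a stretch, matches under a peak of 1 library were 8mers in 34.3% of 341 cases (29.47 to 39.5%), and matches under no peak in 24.0% of 508 (20.5 to 27.9%). In 3′UTRs without a stretch the share was 31.6% of 1098 (28.9 to 34.4%), above that of matches under no peak and near that of 1 library. Of the comparison matches, 30.8% of the 26 under a peak of 1 library were 8mers, and 16.7% of the 18 under none.

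The adenosine was then set against every other neighbouring position. Directly 3′ of the match, A was more frequent in covered than in other matches by 24.8, 7.40 and 19.1 points in replicates 1, 2 and 3, or 17.1 ± 8.87 (n = 3). The next highest mean among the 12 positions examined on each side was 10.8 ± 7.47 points, 9 nt 5′ of the match, and the lowest was -6.81. For windows of the same A or T number in these 3′UTRs, an A followed 25.6% of those in a covered stretch and 24.7% of the others. That is a difference of 0.896 points, and it was 1.97 points for all windows of these 3′UTRs and 1.64 for windows of the same A or T number in all 3′UTRs with a stretch.

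**Figure D3:**
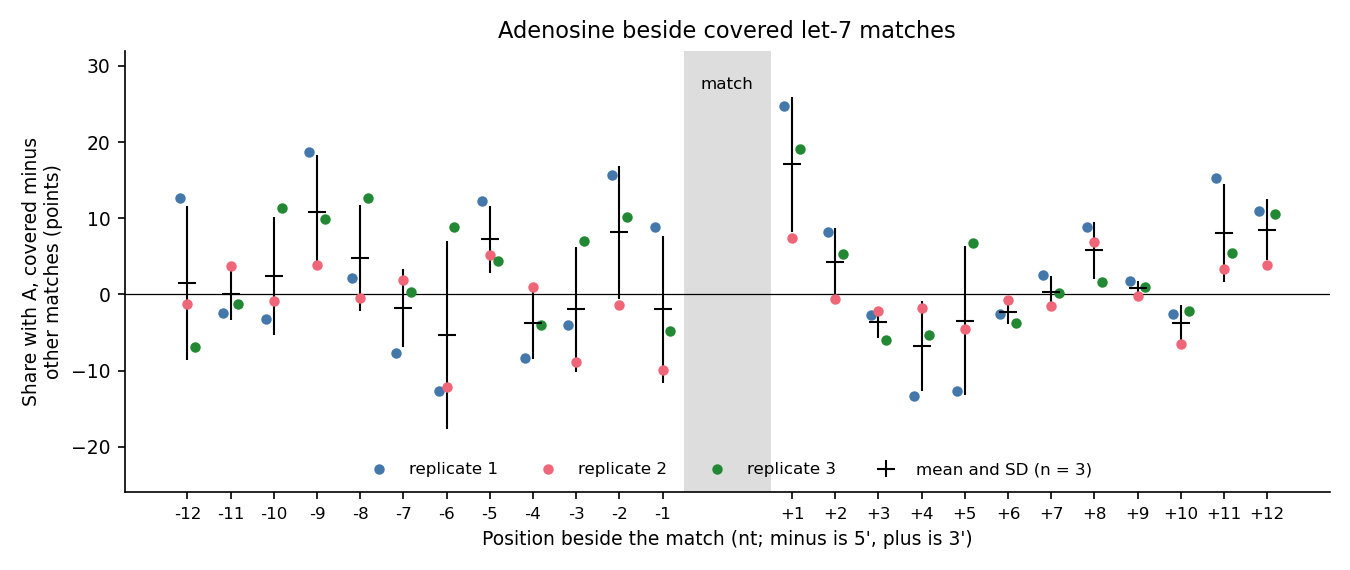
Difference in the share of matches with an A between covered and other let‐7 matches of the same 3′UTRs (vertical axis, percentage points) at each position beside the match (horizontal axis, nt), with a dot for each library and the mean with SD over the 3. The position directly 3′ of the match has the highest mean, 17.1 points.

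The surroundings of the chosen matches were rich in A and T. The 30 nt on each side held 57.7% A or T on average, against 49.8% beside the comparison matches. By library the values were 56.0 and 49.8% in replicate 1, 55.2 and 51.5% in replicate 2, and 55.7 and 50.3% in replicate 3. The difference was 5.10 ± 1.25 points, positive in each library (exact sign‐flip permutation p = 0.25, n = 3). Windows of the same A or T number in these 3′UTRs differed in the same direction, by 2.54, 2.67 and 3.45 points, so covered sequence in general was also richer in A and T.

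Further pairing to the 3′ part of let‐7a, at least 4 contiguous pairs to positions 12 to 17, was present at 16 of the 232 chosen matches (6.90%, 4.29 to 10.9%) and at 2 of the 44 others (4.55%, 1.26 to 15.1%). Over libraries the difference was -1.23 ± 6.02 points (exact permutation p = 1, n = 3), and without replicate 1 it was 2.14. A further let‐7 match within 100 nt was found at 4 of the 232 matches and at 4 of the 44 others. By library the difference was 1.40, -6.33 and -0.832 points in replicates 1, 2 and 3, or -1.92 ± 3.98 (exact permutation p = 0.75, n = 3). These values follow in part from how the groups were built. A 3′UTR with a single match enters only as covered and can have no neighbour, while every comparison match shares its 3′UTR with another. Within the 3′UTRs that hold both kinds, where this does not enter, the mean difference was 0.236 ± 1.11 points (exact permutation p = 1, n = 3). In repeat‐masked sequence lay 21 of the chosen matches (9.05%) and 6 of the others (13.6%). Covered minus other matches gave -0.999, -1.84 and -9.23 points in replicates 1, 2 and 3, or -4.02 ± 4.53 (exact permutation p = 0.25, n = 3).

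Along the 3′UTR the chosen matches were spread widely. Cut into 3 equal parts, the 3′UTRs held 81 matches in the part nearest the coding sequence, 83 in the middle and 68 in the last. The median distance to the nearer end of the 3′UTR was 506, 536 and 521 nt for covered matches and 876, 1036 and 908.5 nt for the others in replicates 1, 2 and 3. This difference of -419 ± 70.5 nt (exact permutation p = 0.25, n = 3) is in part a matter of how the groups were built, since only a 3′UTR with more than 1 match can give a comparison match. As a mean within single 3′UTRs the difference in distance was 477 ± 544 nt. This value rests on the annotated 3′UTR of D10Wsu102e, of 122586 nt, which holds 1 chosen and 3 comparison matches. Without D10Wsu102e, a choice made after the data were seen, the mean within 3′UTRs was -28.2 ± 177 nt (exact permutation p = 1, n = 3) and the pooled difference -381 ± 31.4 nt. The mean relative position differed by only -0.0103 ± 0.0212 of the 3′UTR length (exact permutation p = 0.75, n = 3).

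A library that had not been used to choose the sites was used as a check on their recurrence. Of the let‐7 matches under peaks of replicates 2 and 3, replicate 1 covered 39 of 182 (21.4%), and of those under neither it covered 21 of 437 (4.81%). Replicate 2 covered 39 of 60 (65.0%) against 100 of 381 (26.2%). Replicate 3 covered 39 of 67 (58.2%) against 70 of 349 (20.1%). The difference was 31.2 ± 12.6 points (exact sign‐flip permutation p = 0.25, n = 3). For all 7‐nt windows it was 31.7 ± 15.1 points, close to that of let‐7 matches. Split by site type, the difference was 14.1, 26.1 and 31.6 points for 8mer matches and 17.6, 45.5 and 40.1 points for the others in replicates 1, 2 and 3. It was smaller for 8mers in each library.

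The median width of all peaks was 83, 84 and 85 nt in replicates 1, 2 and 3. A wide peak holds a given match more often than a narrow one, so the larger widths over the chosen matches are favoured by the choice itself. Replicate 1 had a peak over 88 of them, replicate 2 over 210 and replicate 3 over 204, with a median width of the narrowest peak of 99.5, 106 and 102 nt. The match lay a median of 18.25, 16.5 and 22.25 nt from the middle of that peak. The match was inside the central part of some peak, not always the narrowest, for 62 matches in replicate 1 (70.5%). The same held for 161 in replicate 2 (76.7%) and 134 in replicate 3 (65.7%). Peaks of over 1000 nt were the only cover for 17, 11 and 12 matches in the 3 libraries. The central part of a peak held the match in all 3 libraries for 17 of the 232, in 2 libraries for 118, in 1 for 70 and in none for 27. In the same order 52.9, 47.5, 37.1 and 48.1% of these matches were 8mers, so the 8mer share did not rise steadily with central position.

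The stretches themselves had a median length of 127 nt and all covered stretches one of 86 nt, a difference that the choice favours, since a long stretch holds a match more often. They ran from 11 nt, in Tor1aip2, to 3667 nt, in Scd2. The 4 shortest were 11, 23, 26 and 47 nt, so none stood at the lower limit of 8 nt, and 25 matches reached only in part into a stretch and were left out. A pair of stretches held 2 matches each, those of Adamts15 (1677 nt) and Fign (199 nt). Of the genes, 203 had 1 chosen match, 13 had 2 and 1 had 3.

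The 9 8mer matches in the central part of a peak in every library are described from the smallest summed peak width upward, except that Ago2 comes last. Sesn3 encodes a stress‐inducible sestrin that restrains mTORC1. Its match, at chr9:14330274-14330280 on the plus strand, was 4570 nt into a 3′UTR of 7398 nt. The narrowest peaks over it were 87, 85 and 96 nt wide in replicates 1, 2 and 3, and the match lay 3, 5 and -1.5 nt from their middles, where minus is 5′. No other of the 9 matches had a smaller summed width.

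Smug1, a uracil‐DNA glycosylase of base excision repair, had its match at chr15:103155298-103155304 (minus strand) under peaks of 102, 100 and 93 nt. A further match of its 3′UTR, without the adenosine, was under no peak. For Zfp275, a zinc finger gene with the match at chrX:73357564-73357570 (plus strand), the widths were 103, 103 and 105 nt. Its further match, again without the adenosine, was also under no peak. The coverage of these 8mers was fixed by the rule that chose the genes.

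Gxylt1, a xylosyltransferase that extends O‐glucose on Notch, carried its match at chr15:93244001-93244007 (minus strand) under peaks of 113, 105 and 115 nt. The match in Dkk3, a secreted member of the dickkopf family, was at chr7:112117735-112117741 (minus strand), with peaks of 102, 116 and 145 nt. In Tet3, which oxidises 5‐methylcytosine, it was at chr6:83365330-83365336 (minus strand), with peaks of 120, 182 and 105 nt. In this group the middle of each peak was within 31.5 nt of the match, the farthest being that of replicate 2 in Tet3.

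Cbx5 encodes heterochromatin protein 1 alpha, and both let‐7 matches of its 3′UTR were under peaks of all 3 libraries. The 8mer at chr15:103192961-103192967 (minus strand) had peaks of 94, 197 and 157 nt. The match without the adenosine, at chr15:103194890-103194896, had peaks of 102, 291 and 260 nt. Utrn, the dystrophin relative utrophin, had its 8mer at chr10:12382619-12382625 (minus strand), with peaks of 120, 266 and 153 nt. Replicate 1 gave the narrowest peak at these sites.

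The transcript of Ago2, the protein that was precipitated, was among them. Its 3′UTR of 11067 nt held 3 let‐7 matches. The 8mer at chr15:73097983-73097989 (minus strand) was under peaks of 82, 185 and 207 nt, and the match at chr15:73101725-73101731, without the adenosine, under peaks of 98, 186 and 110 nt. The match at chr15:73100041-73100047, also without it, was under a peak of replicate 2 only. Both covered sites were thus found in all 3 libraries.

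**Figure D4:**
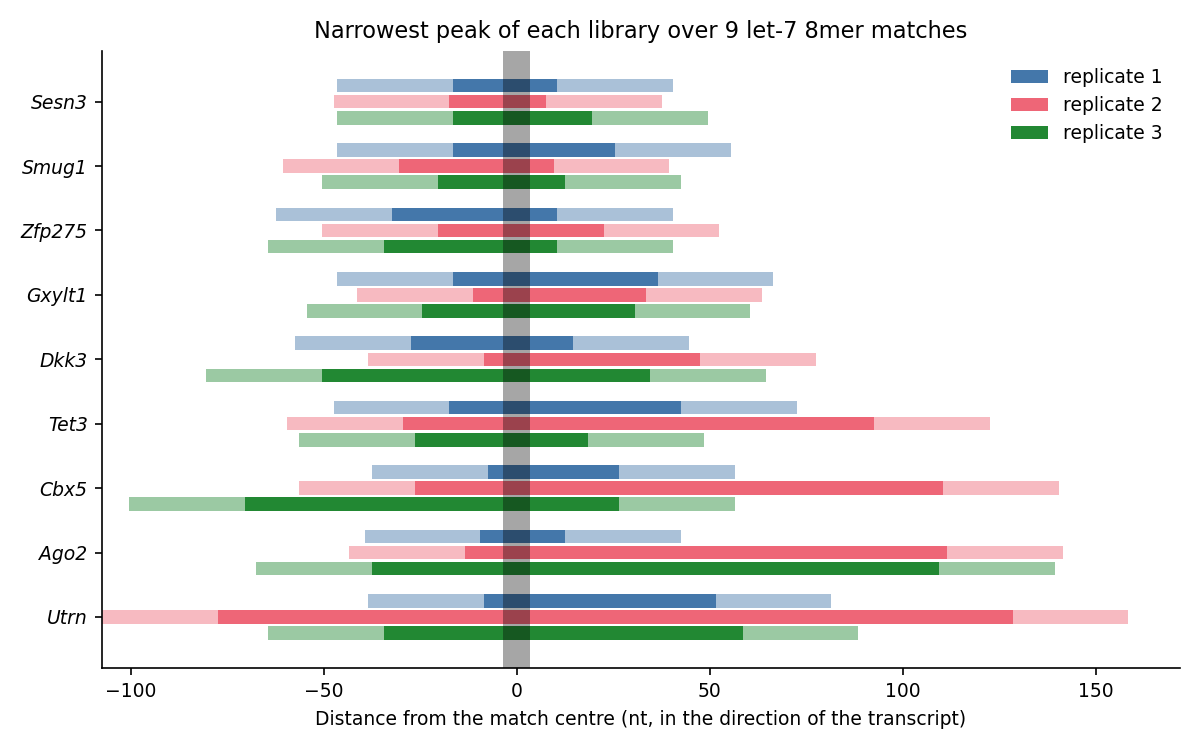
Narrowest peak of each library over the let‐7 8mer match of 9 genes, drawn by distance from the centre of the match in nt along the transcript (horizontal axis). Full colour marks the central part of the peak, pale colour the outer 30 nt on each side, and the grey band the match itself, which lies in the central part of each peak by the rule that chose the genes.

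The textbook let‐7 targets were examined as a list of 38 genes. Of these, 28 had a let‐7 match in the longest 3′UTR and 12 had a chosen site, or 42.9% of those with a match, against 11.4% of all 1897 genes with one. Among genes that also had a covered stretch the counts were 12 of 22 listed genes (54.5%) and 217 of 914 genes in all (23.7%). Counted by match the gap was smaller, with 14 of 42 matches of the listed genes in a stretch (33.3%) against 21.5% of all 1081. Of the other 10 listed genes with a stretch, 8 had a match under a peak of 1 library. The 6 listed genes with a match and no stretch included Hmga2 and Igf2bp1, whose 4 matches each were under no peak.

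Lin28b, which blocks let‐7 maturation, had 4 matches, each under at least 1 peak. The 2 chosen ones are shown because they lie close together and were covered by different pairs of libraries.
Lin28b, 5′ site: atacttgttagtaaCTACCTCt
Lin28b, 3′ site: tttacagcacatggCTACCTCc
The 5′ site, at chr10:45378649-45378655 (minus strand), was under peaks of 85 nt in replicate 1 and 120 nt in replicate 2. The 3′ site, at chr10:45378477-45378483, was under peaks of 94 nt in each of replicates 2 and 3. Neither has the adenosine. The only 8mer of this 3′UTR, 38 nt from its start, was under a peak of replicate 2 alone.

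Trim71, the ubiquitin ligase known as LIN41 and a classical let‐7 target, had 4 matches, all of them 8mers.
Trim71, 5′ site: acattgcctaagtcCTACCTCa
Trim71, 3′ site: tggcaaaaagttgtCTACCTCa
The 5′ chosen site, at chr9:114512473-114512479 (minus strand), was under peaks of 115 nt in replicate 2 and 111 nt in replicate 3. The 3′ chosen site, at chr9:114509022-114509028, was under peaks of 82 and 86 nt in the same libraries. Its stretch was 50 nt long, and a further match 26 nt 5′ of it was under a peak of replicate 3 only. Replicate 1 had no peak over any Trim71 match.

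Nr6a1, an orphan nuclear receptor of germ cells and early embryos, had the most matches of the list, 8 in a 3′UTR of 4460 nt. A single 8mer, at chr2:38727450-38727456 (minus strand), was in a covered stretch, under peaks of 97 nt in replicate 2 and 131 nt in replicate 3. Of the other 7 matches, 3 were under a peak of 1 library and 4 under none. The match was 43 and 53 nt from the middle of its peaks and thus outside their central part.

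Among the other listed targets, the match was under peaks of all 3 libraries in Arid3b, Plagl2, Map4k3 and Rictor. In Arid3b, which encodes a DNA‐binding protein, the match at chr9:57790362-57790368 (minus strand) was under peaks of 88, 93 and 112 nt and in the central part of each. In Plagl2, a zinc finger transcription factor, the widths were 83, 124 and 89 nt, and in the kinase gene Map4k3 they were 91, 170 and 87 nt. In Rictor, a subunit of mTORC2, they were 595, 83 and 86 nt. The sites of Map4k3 and Rictor were 8mers, and those of Arid3b and Plagl2 were not.

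Further listed targets were covered in replicates 2 and 3. Igf2bp3, an RNA‐binding protein of the fetal programme, had an 8mer under peaks of 115 and 101 nt in these libraries. Irs2, which relays insulin signals, had one under peaks of 116 and 95 nt in the same libraries, 2.5 and 1 nt from their middles. In Tgfbr1, the type I TGF‐beta receptor, an 8mer 68 nt into the 3′UTR was under peaks of 79 and 128 nt in these libraries as well. E2f5, a cell cycle transcription factor, had a match without the adenosine under their peaks of 106 and 85 nt.

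**Figure D5:**
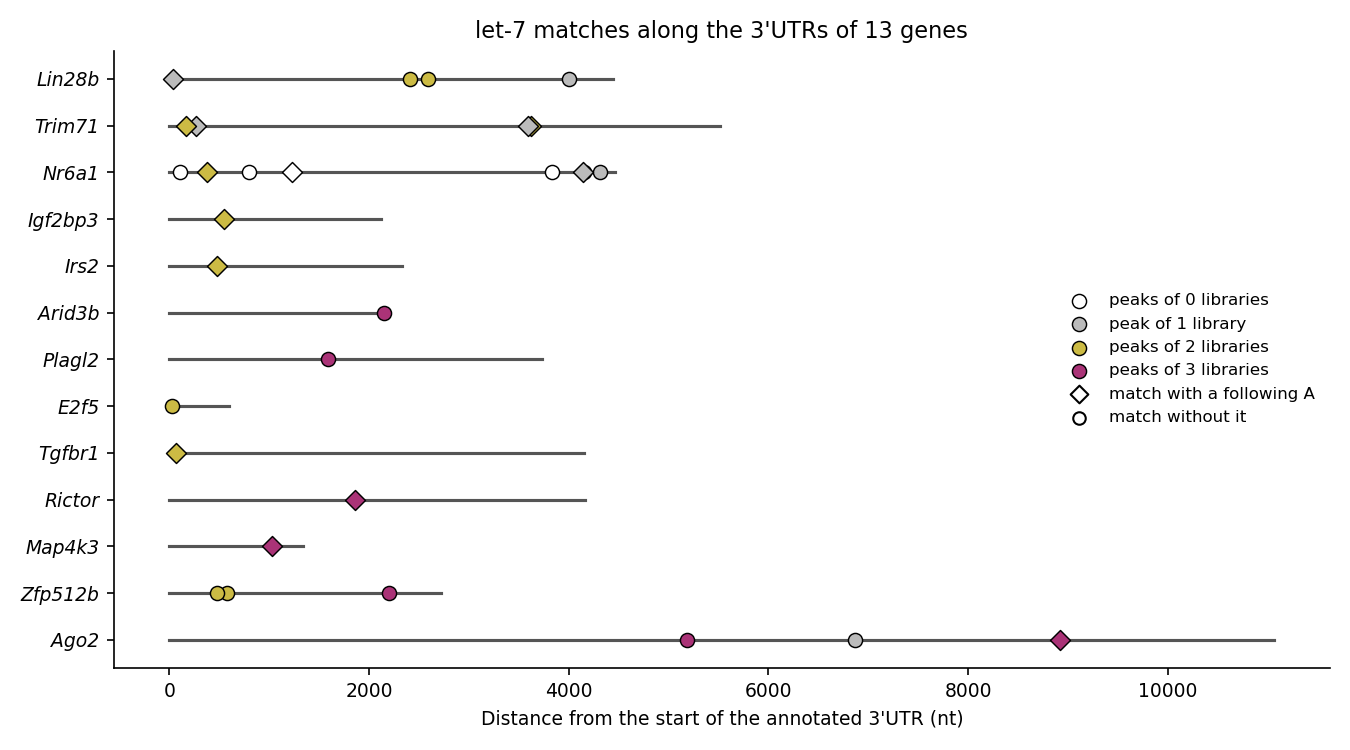
let‐7 matches along the annotated 3′UTRs of 11 textbook targets with a chosen site, of Zfp512b and of Ago2, by distance from the start of the 3′UTR in nt (horizontal axis). Lines are 3′UTRs, diamonds are matches with a following A, circles are matches without it, and the fill gives the number of libraries with a peak over the match, which was 0 for 4 of the 8 matches of Nr6a1.

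Zfp512b, a zinc finger gene, was the single gene with 3 chosen matches. All 3 lacked the adenosine. In replicate 1 they were under 1 peak of 7483 nt, which spans all of them. In replicate 2 each had a peak of its own, of 95, 89 and 97 nt from the 3′‐most to the 5′‐most match, and replicate 3 covered the 3′‐most with a peak of 102 nt. For the other 2 matches the second library thus rests on that wide peak.

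The pathway lists contributed few sites each. They were chosen with earlier results of these data known, overlap with the textbook targets, and are read against the same 11.4% of genes with a match, or 23.7% of genes that also had a stretch. Of the let‐7 biogenesis and miRNA effector genes with a match 3 of 6 had a chosen site, namely Ago2, Lin28b and Trim71. Of RAS and MAPK genes 4 of 7 had one, of cell cycle genes 3 of 7, and of insulin, IGF and TOR genes 3 of 10. The counts were 2 of 6 for TGF‐beta and activin signalling, 4 of 15 for chromatin and transcription regulators, and 1 of 7 for neuronal growth and guidance, where only 2 of the 7 had a covered stretch. Among genes with a match and a stretch the counts were 3 of 5, 4 of 7, 3 of 7, 3 of 7, 2 of 4, 4 of 13 and 1 of 2 in the same order, and the 30.8% of the chromatin list was near that of all genes.

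Genes of these lists that are no textbook target also held chosen matches. Braf, a kinase of the MAPK cascade, had a match without the adenosine under peaks of 83 and 90 nt, and Mapk6 had an 8mer under wider peaks of 478 and 228 nt, both in replicates 2 and 3. Map3k1, an upstream kinase, had an 8mer under peaks of 103 nt in replicate 1 and 412 nt in replicate 2. Among cell cycle genes, Ccnj, which encodes cyclin J, had an 8mer under peaks of 96 and 103 nt in replicates 1 and 2. E2f2 had a match without the adenosine under peaks of 108 nt in replicates 2 and 3, at the outer part of both. Tgfbr3, the TGF‐beta co‐receptor betaglycan, had an 8mer under peaks of 103 and 119 nt, and Sema4c, a semaphorin, one under peaks of 123 and 84 nt, in replicates 2 and 3. Ezh2, the Polycomb histone methyltransferase, had a match 9 nt into its 3′UTR under peaks of all 3 libraries, of 521, 127 and 96 nt.

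let‐7 was compared with other seeds by the same rule. Matches of miR‐15/16, which also have 3 A or T bases, were in a covered stretch in 22.2% of 3372 cases (20.9 to 23.7%), or 1.40 times as often as windows of like composition. For miR‐17 the share was 32.7% of 1671 (30.5 to 35.0%) and the ratio 1.68. For miR‐9‐5p it was 20.2% of 1503 (18.2 to 22.3%) and the ratio 1.04. The value of let‐7, 21.5% with a ratio of 1.35, was thus close to that of miR‐15/16 and below that of miR‐17. The 8mer share inside against outside the stretches was 44.8 against 28.2% for let‐7, 20.8 against 12.3% for miR‐15/16, 32.4 against 26.4% for miR‐17 and 35.0 against 30.9% for miR‐9‐5p. No test of the differences between families was made.

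Other seed matches within the let‐7 stretches were counted next. Of the 230 stretches, 38 (16.5%) held a match of miR‐15/16, miR‐17, miR‐9‐5p, miR‐30, miR‐19 or miR‐25/32/92, against 8.43% of all covered stretches. The most frequent was miR‐15/16, in 17 stretches (7.39%), against 2.24% of all covered stretches. Since the let‐7 stretches were longer, densities were compared too, and were 0.374 miR‐15/16 matches per kb in let‐7 stretches (20 matches) and 0.232 per kb in all stretches. For miR‐17 the densities were 0.0934 (5 matches) and 0.169 per kb, for miR‐9‐5p 0.131 (7) and 0.0939, for miR‐30 0.168 (9) and 0.176, for miR‐19 0.149 (8) and 0.133, and for miR‐25/32/92 0.0187 (1) and 0.0936. Per kb the let‐7 stretches were thus higher for 3 of the 6 seeds and lower for 3.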

How the data were processed

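The authors called Ago2 HITS‐clip peaks per sample and deposited 1 table of intervals with strand and a score of unstated unit, which was not used. The submitters' processing notes name FastQC, cutadapt, STAR and mm10. The peak caller and its threshold are not given in the sources used here. Starts were read as counted from 0. In GRCm38 no stop passed the end of the 21 nuclear chromosomes. Peaks were used as deposited. Unmapped columns of sample values numbered 0.

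The longest 3′UTR of each protein‐coding gene (GENCODE mouse M21, 21671 genes, stop codon included, spliced) was scanned for seed matches. Bases shared by overlapping 3′UTRs were counted once. Each library is a replicate, sites are not, and differences were tested by exact sign‐flip permutation, two‐sided, over the 3 libraries (smallest p 0.25). Genes were named as textbook targets with a chosen site, as genes with at least 3 chosen matches, as those with an 8mer in the central part of a peak in all libraries, and as examples of the lists. Some genes that met these rules are not reported here. Members and lists were chosen with earlier results of these data known. The alternatives were number of libraries, each replicate left out, peak width, trimming, strand, overlap, stretch length, 3′UTR model, site type, comparison sites and window settings. The search was tested on simulated data (200 of 200 planted matches recovered, 0 others). The mature sequence of miR‐124‐3p was not in the table used here, and miR‐9‐5p, chosen afterwards, took its place. Computation used scipy 1.17.1, pysam 0.24.0, numpy 2.4.6 and pandas 2.3.3 under Python 3.11.15, with matplotlib 3.10.9 for the plots.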

Additional observations from a re-analysis of the deposited data

How the results depend on the processing

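The number of stretches was 39 with peaks of all 3 libraries, 134 with peaks trimmed by 30 nt, 11 with peaks of the opposite strand, 735 with matches to positions 2 to 7 and 102 with 8mers only, and ran from 60 to 181 with 1 replicate left out. The share of let‐7 matches in a stretch was 7.74% with all 3 libraries, 17.7% with peaks of 86 to 200 nt, 13.99% with trimmed peaks, 6.28% on the opposite strand, 39.8% between the first and last covered base, 30.3% for 8mers and 17.3% for the others, and 8.96 to 19.3% with 1 replicate left out. These shares are over 3′UTRs with a stretch under the same setting. Its ratio to that of all windows was 1.94 with trimmed peaks, 1.53 for 8mers, 0.873 for matches without the adenosine and 1.35 against windows of the same A or T number, and 1.07 to 1.25 with 1 replicate left out. The difference in distance to the nearer end turned to 477 nt as a mean within the 3′UTR, and was -28.2 nt there without D10Wsu102e. With all 3′UTRs with a stretch (chosen after the data were seen) it was -149 nt. The difference in further pairing turned to 1.47 points between the first and last covered base, 3.23 within the 3′UTR and 2.83 with all 3′UTRs with a stretch (chosen after the data were seen), and ran from -3.63 to 2.14 with 1 replicate left out. That in neighbouring matches turned to 0.236 within the 3′UTR, ran from -3.58 to 0.283 with 1 replicate left out, and was lowest, -11.8, within 200 nt. Within the 3′UTR it was 0.252 for 50 nt and 2.09 for 200 nt (both chosen after the data were seen). The cause of these changes was not tested. The 8mer difference (12.5 to 24.5 points), the A or T difference (4.01 to 6.63) and the held‐out difference (24.0 to 38.5) kept their sign in every alternative run. So did the gain at the match on the strand of the gene (2.22 to 8.04 points). On the opposite strand this gain was 0.317 ± 0.325 points (exact permutation p = 0.25, n = 3). It was thus far smaller there, but neither its sign nor that p separates the strands. A mean difference within the 3′UTR has no meaning for the share in a stretch and was not run. No paired analysis was possible because the samples form 1 group. Without read counts, peak depth could not be weighed, and 3 libraries cannot give a p below 0.25.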
